A study of Homo sapiens with 12 samples.

Results

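Acetylation deserts are taken here as stretches of at least 500 kb between 2 neighbouring H3K27ac peaks of HepG2 cells. Each of the 66490 gaps between neighbouring H3K27ac peaks on chromosomes 1 to 22 and X was measured, and 1058 reached 500 kb. Of these, 27 touched a centromere band and were set apart, which left 1031 deserts, 1.55% of all gaps. The deserts were chosen by the positions of the H3K27ac peaks, so their number and length are a description and were not tested. What the rule did not use was the H3K4me1 and H3K4me3 peaks that remained inside them.

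HepG2 is an established line from a human liver cancer, and the cells were untreated. The series comprised 12 chromatin immunoprecipitation sequencing libraries in 4 groups of 3, namely 1 group for each of H3K27ac, H3K4me1 and H3K4me3 and 1 of controls. The latter are titled as input but carry an anti-mouse IgG antibody label, so their kind is uncertain. The values were 1 deposited peak list per mark, each pooled over the replicates going by its name, so differences between cultures were not measured, nothing was tested, and the read depth is unknown.

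H3K27ac is an acetylation of histone H3 placed at active promoters and enhancers. H3K4me3 marks promoters, above all those rich in CG dinucleotides, whether or not the gene is strongly transcribed, and H3K4me1 marks enhancers and promoter flanks, including enhancers that carry no acetylation. A gene that a cell type does not use commonly lies in a long domain without acetylation, and large genes of the nervous system often form such domains in liver cells.

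The promoters below show the sequences at both ends of what the deserts held. CD47 (a cell surface protein that restrains phagocytes) and UBE2E2 (a ubiquitin-conjugating enzyme) lay under the strongest H3K4me3 peaks found inside deserts. SLITRK5, SLITRK1 and SLITRK6 (transmembrane proteins of neurons) share the longest desert, and among them SLITRK5 had an H3K4me3 peak at its start while the other two had none. Each run is the 250 bases before the gene's start, 5′ to 3′ on the gene's strand, from RefSeq on GRCh38.p14, with CG dinucleotides in capitals.
CD47: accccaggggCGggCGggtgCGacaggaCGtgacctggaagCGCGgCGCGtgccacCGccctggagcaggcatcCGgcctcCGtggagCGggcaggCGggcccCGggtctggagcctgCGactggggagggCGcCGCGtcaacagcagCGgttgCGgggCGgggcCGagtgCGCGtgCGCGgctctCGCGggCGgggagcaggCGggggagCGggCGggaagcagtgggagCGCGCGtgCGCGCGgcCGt
UBE2E2: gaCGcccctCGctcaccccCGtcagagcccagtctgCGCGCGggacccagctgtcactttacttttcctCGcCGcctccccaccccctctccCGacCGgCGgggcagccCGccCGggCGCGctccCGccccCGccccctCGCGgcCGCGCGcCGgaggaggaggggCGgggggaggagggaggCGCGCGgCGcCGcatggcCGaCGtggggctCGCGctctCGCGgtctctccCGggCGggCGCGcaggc
SLITRK5: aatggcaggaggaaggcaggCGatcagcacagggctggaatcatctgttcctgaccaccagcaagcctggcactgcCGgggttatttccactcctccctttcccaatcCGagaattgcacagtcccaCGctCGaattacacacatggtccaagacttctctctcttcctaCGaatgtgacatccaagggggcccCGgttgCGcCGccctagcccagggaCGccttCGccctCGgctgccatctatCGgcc
SLITRK1: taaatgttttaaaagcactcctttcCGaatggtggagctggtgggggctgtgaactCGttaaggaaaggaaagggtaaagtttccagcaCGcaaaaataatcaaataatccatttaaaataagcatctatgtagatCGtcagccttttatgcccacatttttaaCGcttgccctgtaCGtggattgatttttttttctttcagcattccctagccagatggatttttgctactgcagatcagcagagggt
SLITRK6: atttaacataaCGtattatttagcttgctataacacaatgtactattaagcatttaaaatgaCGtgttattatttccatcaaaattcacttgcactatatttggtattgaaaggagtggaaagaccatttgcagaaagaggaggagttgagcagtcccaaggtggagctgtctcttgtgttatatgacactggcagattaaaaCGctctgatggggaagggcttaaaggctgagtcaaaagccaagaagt
The CD47 and UBE2E2 sequences held 39 CG dinucleotides each, a number that 2.65% of all 35116 RefSeq promoter windows reached. The SLITRK5 sequence held 13, reached by 46.6% of promoters. The SLITRK1 sequence held 6 and the SLITRK6 sequence 3, reached by 61.9% and 77.1% of promoters.

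The deserts covered 1217.3 Mb, 40.1% of the 3036.3 Mb of chromosomes 1 to 22 and X. Their median length was 0.882 Mb (quartiles 0.640 and 1.34 Mb), against a median of 4079 bp for all gaps. The 433 deserts of 1 Mb or more held 65.9% of desert length, the 116 of 2 Mb or more held 29.8%, and 10 were of 5 Mb or more. The shortest 5 deserts measured 500435 to 501245 bp and the longest 5 gaps left out measured 497223 to 498069 bp. Those 5 shortest deserts held 0 to 22 H3K4me1 peaks each, and the 5 gaps just below the limit held 3 to 13. The numbers in the H3K27ac peak names ran to 66606, of which 20 did not occur in the list used here. Where those peaks lie is unknown, so up to 20 deserts could hold 1 that was not analysed here, and the same applies to 40 numbers of the H3K4me1 list and 28 of the H3K4me3 list.

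Deserts were spread unevenly over the chromosomes, as the plot of desert length by chromosome shows. They took 58.2% of chromosome X and 57.3% of chromosome 4, then 49.8% of chromosome 5 and 49.6% of chromosome 18. At the other end they took 16.8% of chromosome 17, 7.84% of chromosome 22 and 7.59% of chromosome 19. The density of H3K27ac peaks was 11.1 per Mb on X and 56.2 per Mb on chromosome 19. On X the H3K27ac peaks with signal values of 4 to 6 had a median −log10 p of 31.7, the lowest of the 23 chromosomes, where the highest was 94.6 on chromosome 20. The part of that difference in the extent of deserts on X was not tested.

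**Figure D1:**
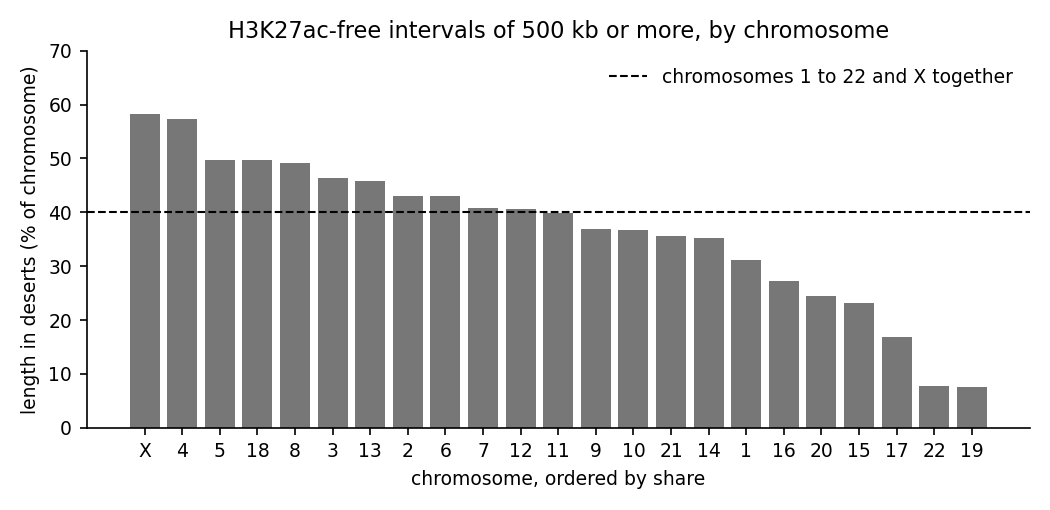
Share of each chromosome's length (%) that lay in H3K27ac-free intervals of 500 kb or more, without those on centromere bands; bars are chromosomes in order of share and the dashed line is the share over all 23, 40.1%. Chromosomes X and 4 stand above 57% and chromosomes 22 and 19 below 8%.

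The Giemsa bands of the chromosomes, which are independent of the peak lists, differed in how much of them was desert. The darkest bands, which are rich in A and T and poor in genes, make up 16.4% of the genome but 31.4% of desert length. Deserts covered 76.7% of the darkest bands (SD 7.26 percentage points over 18 chromosomes) and 28.9% of the light bands (SD 11.9 over 23). Within deserts, H3K4me1 summits stood at 4.93 per Mb in the darkest bands and at 12.4 per Mb in the light ones. H3K4me3 summits stood at 0.672 and 1.01 per Mb. The 27 intervals set apart for a centromere band lay on 20 chromosomes, measured 0.569 to 22.1 Mb and held 1.32 H3K4me1 and 0.222 H3K4me3 peaks per Mb.

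The deserts held few of the peaks of either methylation mark. Of 182592 H3K4me1 peaks, 10852 (5.94%) lay wholly inside, which gives 8.91 per Mb against 109 per Mb in the rest of the genome, 12.2 times fewer. The ratio of inside to outside was 0.0820 (SD 0.0285 over 23 chromosomes), lowest on chromosome 21 at 0.0391 and highest on chromosome 22 at 0.181. Of 24446 H3K4me3 peaks, 1030 (4.21%) lay inside, or 0.846 per Mb against 14.8 per Mb outside, 17.5 times fewer, with a ratio of 0.0571 (SD 0.0207). Both ratios were below 1 on 23 of 23 chromosomes. Much of the H3K4me3 outside lay on H3K27ac peaks, which deserts lack by definition. Peaks that overlapped H3K27ac, 18955 of H3K4me3 and 61023 of H3K4me1, could not lie wholly inside. Ratios below 1 against the rest of the genome are thus partly fixed by the rule for both marks. Against the unacetylated sequence of gaps of 10 to 500 kb, which held 68.8 H3K4me1 and 3.01 H3K4me3 peaks per Mb, the ratios were 0.130 for H3K4me1 and 0.281 for H3K4me3. By that comparison H3K4me1 was the mark more reduced in deserts, whereas against the whole of the rest it was H3K4me3. The latter order depended on counting only peaks wholly inside. With all peaks that share at least 1 bp with a desert, the ratios against the rest were 0.0907 for H3K4me1 and 0.0968 for H3K4me3.

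H3K4me1 became sparser with every step in gap length, from 117 per Mb in gaps of 10 to 50 kb to 28.5 per Mb at 250 to 500 kb. In deserts the fall went on, to 15.2 per Mb at 0.5 to 1 Mb, 7.63 per Mb at 1 to 2 Mb and 3.25 per Mb at 2 Mb or more. The number of H3K4me1 peaks per desert hardly moved meanwhile: its median was 9 in each of these 3 length classes and 8 in gaps of 250 to 500 kb. H3K4me3 stood at 3.31, 3.64 and 3.23 per Mb in the 3 classes up to 250 kb and then fell to 1.97, 1.23, 0.739 and 0.533 per Mb. From the shortest to the longest class the density differed by 36.1 times for H3K4me1 and by 6.22 times for H3K4me3. The 500 kb limit therefore fell within a gradual decline of both marks.

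**Figure D2:**
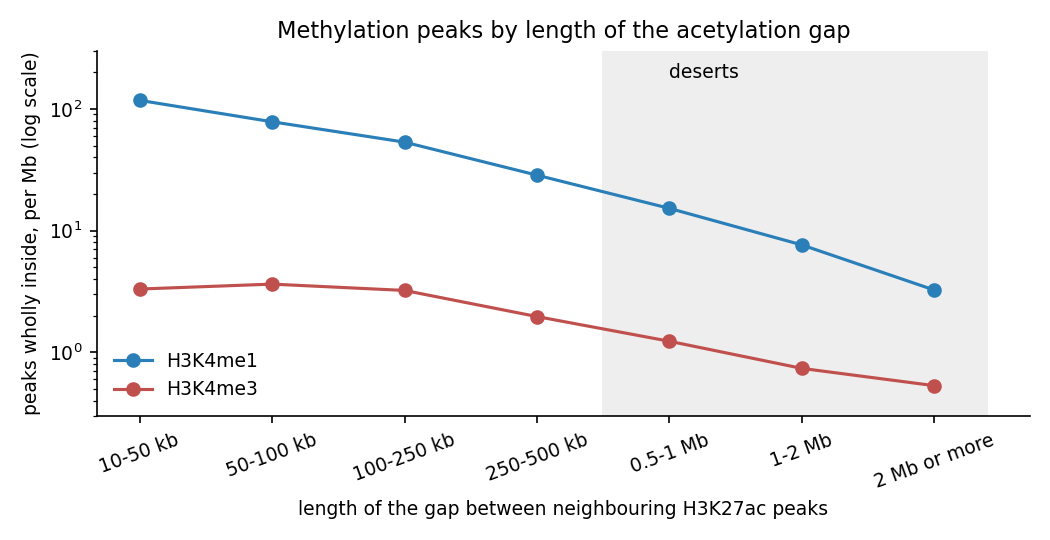
H3K4me1 and H3K4me3 peaks wholly inside gaps between neighbouring H3K27ac peaks, per Mb on a log scale, by gap length; each point pools all gaps of a class and the shaded classes are the deserts. H3K4me1 falls from 117 to 3.25 per Mb, and H3K4me3 is nearly level up to 250 kb and then falls to 0.533 per Mb.

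Within deserts the H3K4me1 peaks crowded toward the acetylated ends. Counted by summit, their density was 101 per Mb within 5 kb of a bounding H3K27ac peak, 44.6 per Mb at 5 to 10 kb, 15.8 per Mb at 50 to 100 kb and 2.07 per Mb beyond 500 kb, a span of 49.1 times. H3K4me3 went from 2.13 per Mb within 5 kb to 0.447 per Mb beyond 500 kb, a span of 4.78 times. Sequence more than 250 kb from any acetylation made up 57.7% of desert length and held 23.9% of the H3K4me1 and 35.7% of the H3K4me3 peaks inside. Peaks that stuck out over a desert's end, 1085 of H3K4me1 and 667 of H3K4me3, are not in these counts. The counts within 5 kb were 1046 H3K4me1 and 22 H3K4me3 summits. The densities next to the ends, above all that of H3K4me3, therefore depend on leaving such peaks out, and so do the spans of 49.1 and 4.78 times. The signal values did not follow the density: the median of H3K4me1 peaks stayed between 3.02 and 3.24 in all 8 distance classes.

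**Figure D3:**
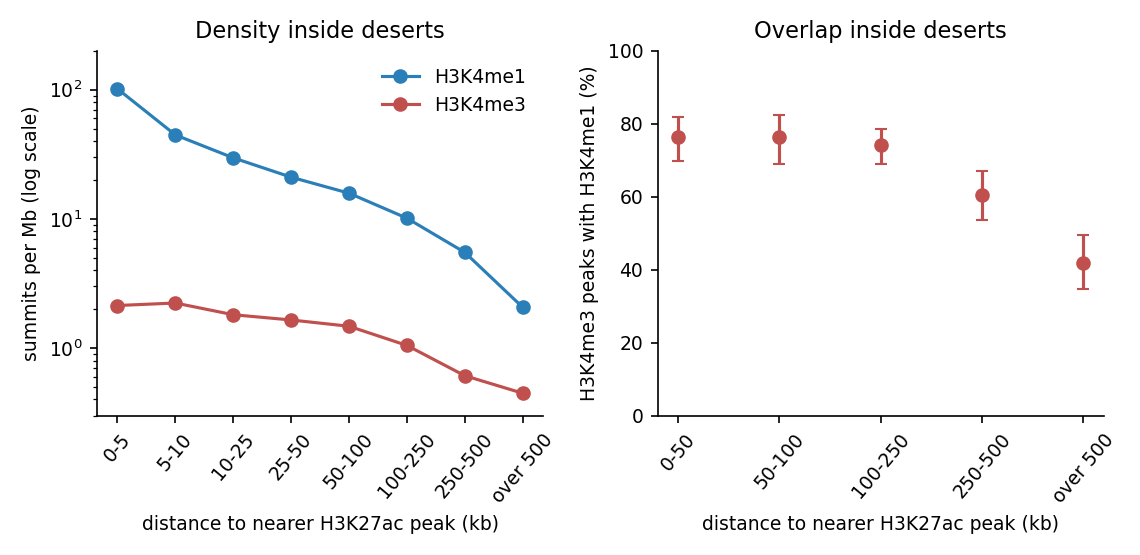
Left, H3K4me1 and H3K4me3 summits per Mb of desert (log scale) by distance in kb to the nearer bounding H3K27ac peak; right, share of the H3K4me3 peaks that shared at least 1 bp with an H3K4me1 peak, with 95% Wilson intervals as bars. H3K4me1 density falls from 101 to 2.07 per Mb, and the overlap from 76.3% to 41.8%.

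The peaks that remained in deserts were narrow and weak, and in this they resembled unacetylated peaks elsewhere. The H3K4me1 peaks inside had a median width of 518 bp and a median signal value of 3.14 (quartiles 2.72 and 3.88). Unacetylated H3K4me1 peaks outside had 560 bp and 3.13, and those on H3K27ac had 1258 bp and 4.45. The H3K4me3 peaks inside had a median width of 659 bp and a median signal value of 3.65 (quartiles 2.59 and 6.30), against 674 bp and 3.47 for unacetylated peaks outside. H3K4me3 peaks that overlapped H3K27ac were 2046 bp wide with a median of 27.5. None of the 1030 H3K4me3 peaks inside fell in the strongest 25% of the list, in which 1 unacetylated peak outside and 6111 acetylated peaks stood. The signal values are those the authors deposited, and what they are relative to is not stated.

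**Figure D4:**
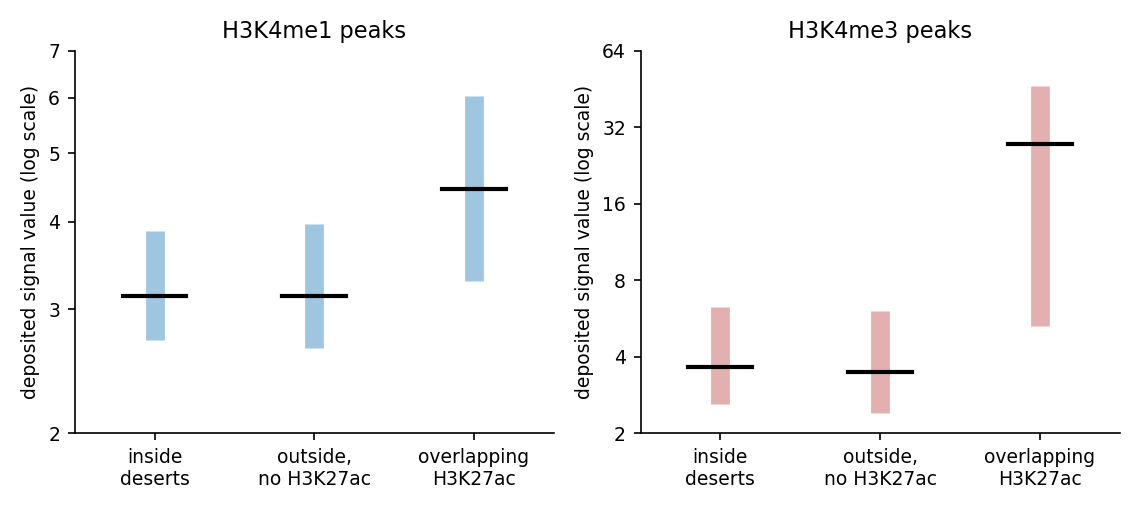
Deposited signal values of H3K4me1 (left) and H3K4me3 (right) peaks on log scales; the coloured bars span the quartiles and the black lines are medians, for peaks inside deserts, unacetylated peaks outside and peaks that overlapped H3K27ac. Desert peaks lie beside the unacetylated ones outside, with medians of 3.14 and 3.13 for H3K4me1 and of 3.65 and 3.47 for H3K4me3.

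H3K4me3 inside deserts was less often joined by H3K4me1 than elsewhere. Over the whole list 92.7% of H3K4me3 peaks shared at least 1 bp with an H3K4me1 peak. Inside deserts 690 of 1030 did, 67.0% (95% Wilson interval 64.1 to 69.8%), against 87.1% (86.1 to 88.1%) of unacetylated H3K4me3 peaks outside. These intervals cover counting error only and treat neighbouring peaks as independent. The share was lower inside on 23 of 23 chromosomes, with means over chromosomes of 65.2% inside and 87.2% outside (SD of the difference 11.9 percentage points), and it was lowest on X at 32.7% of 52 peaks. Peaks of like strength differed in the same way: in the weakest 25% of the list the share was 61.4% inside and 86.3% outside, and in the next 25% it was 69.5% and 87.3%. In the 25% after that, with 55 peaks inside, the shares were 92.7% and 93.8% and their intervals overlapped.

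The overlap also depended on how far into the desert the H3K4me3 peak lay. It was 76.3% within 50 kb of a bounding H3K27ac peak, 76.3% at 50 to 100 kb and 74.1% at 100 to 250 kb. It fell to 60.6% (53.7 to 67.1%) at 250 to 500 kb and to 41.8% (34.6 to 49.4%) beyond 500 kb. The 340 H3K4me3 peaks without H3K4me1 lay a median of 268 kb from the nearer end, and the 690 with it 141 kb. Those without had a median width of 538 bp and signal value of 3.29, and those with it 723 bp and 3.87. The H3K4me1 density fell along the same axis, and its part in the overlap was not tested. In the other direction, 9.72% of H3K4me1 peaks inside touched H3K4me3 (9.18 to 10.3%), against 18.9% of the whole list and 7.22% of unacetylated H3K4me1 peaks outside. That share was higher inside on 17 of 23 chromosomes and lower on 6, with a mean difference of 1.86 percentage points. The SD of 2.60 is that of single chromosomes and not the error of this mean. The interval outside was 7.07 to 7.37%. By class of signal value, weakest first, the share was 6.48, 7.93, 12.8 and 16.3% inside and 4.00, 5.25, 9.15 and 14.8% outside. Only in the strongest class did the intervals overlap.

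Most deserts kept some methylation. Both marks occurred in 595 deserts, H3K4me1 alone in 411, H3K4me3 alone in 5 and neither in 20. These counts take peaks wholly inside: with peaks that stick out over a desert's end counted too, the deserts without H3K4me3 went from 431 to 204 and those without H3K4me1 from 25 to 12. A desert held a median of 9 H3K4me1 peaks (quartiles 5 and 14, most 50) and a median of 1 H3K4me3 peak (quartiles 0 and 2, most 8). The 25 deserts without H3K4me1 covered 29.3 Mb and included 7 on X and 5 on chromosome 5. The longest was chrX:140001232-146956740, which held neither mark in 6.96 Mb, followed by chr5:25394828-27388771, which contains the cadherin gene CDH9 and held 1 H3K4me3 peak, and by chr9:42256870-44107741 with neither mark. Within deserts, which leave out the centromere intervals, stretches of 500 kb or more without a peak of any of the 3 marks numbered 540. They covered 526 Mb, and the longest 3 were all on X, at 6.96, 4.53 and 4.13 Mb. At the other extreme chr7:154796876-155383183 held 50 H3K4me1 peaks, or 85.3 per Mb against 109 per Mb outside deserts. Next came chr22:39930892-40439547 with 33 (64.9 per Mb) and chr2:71787414-72304740 with 32 (61.9 per Mb). The absent peak numbers given above bear on such single deserts, since 1 further H3K27ac peak inside would split any of these 3 below 500 kb unless it lay close to an end.

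The 10 longest deserts measured 5.12 to 9.89 Mb and held 0 to 20 H3K4me1 and 0 to 5 H3K4me3 peaks each, with signal values of at most 6.73 and 8.42. The longest, chr13:81048974-90939724, contained SLITRK1, SLITRK6 and SLITRK5, whose promoters are printed above. It held 8 H3K4me1 and 5 H3K4me3 peaks in 9.89 Mb. At SLITRK5 stood 4 of the 8 H3K4me1 and 2 of the 5 H3K4me3 peaks, within 10 kb of each other at 7.27 to 7.28 Mb from the left end. The H3K4me3 peak at the start of SLITRK5 had a signal value of 3.14. The strongest H3K4me3 signal value anywhere in the desert was 8.25, which was not at that start. SLITRK1 and SLITRK6 had no peak of any mark in their spans or within 2 kb of their starts.

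The next longest desert, chr4:26938974-36226674, contained PCDH7, a protocadherin adhesion protein, and held 10 H3K4me1 and no H3K4me3 peaks in 9.29 Mb. The third, chr21:19192344-26978981, contained NCAM2, a neural adhesion molecule, with 9 H3K4me1 and 4 H3K4me3 peaks. On X, chrX:140001232-146956740 contained SLITRK4 and SLITRK2, chrX:87868554-94748373 contained PCDH11X with 4 H3K4me1 and 2 H3K4me3 peaks, and chrX:31374678-37206526 held part of DMD, the dystrophin gene, with 6 and 2. The desert chr13:53425312-59025531 contained PCDH17 with 5 H3K4me1 peaks and 1 H3K4me3 peak. SORCS3 and SORCS1, sorting receptors of neurons, shared chr10:106110126-111674216 with 20 H3K4me1 and 3 H3K4me3 peaks. The cadherin gene CDH8 lay in chr16:58768691-64193216 with 14 H3K4me1 peaks, all within 0.5 Mb of its left end, and 1 H3K4me3 peak. The tenth, chr8:112577630-117699777, held 19 and 3. SLITRK4, SLITRK2 and CDH8 were looked up after the longest deserts were known.

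**Figure D5:**
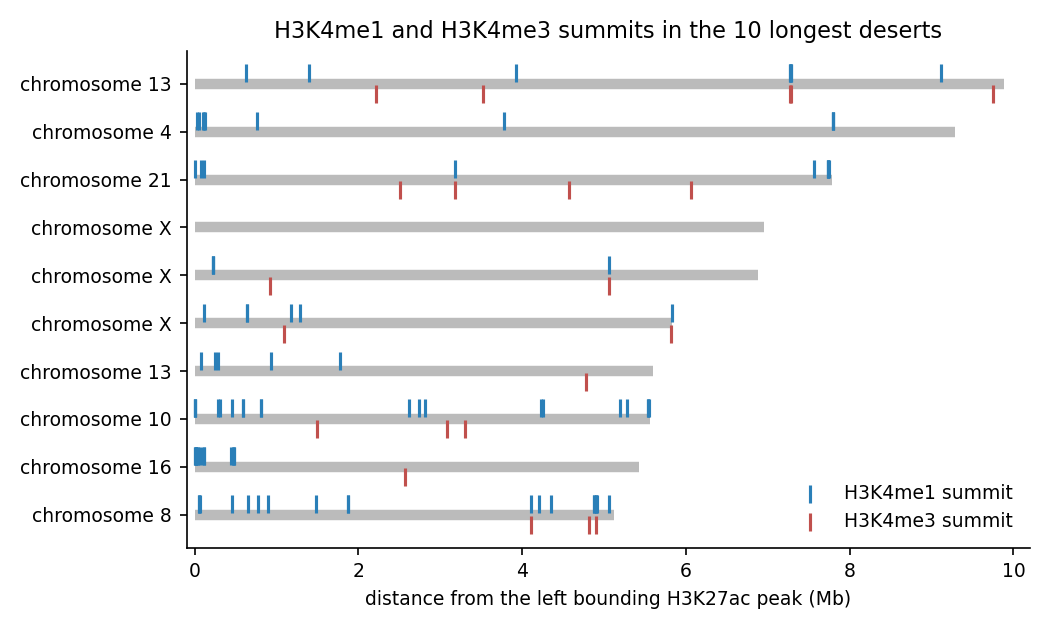
The 10 longest deserts as grey bars, in Mb from the left bounding H3K27ac peak, longest at the top; blue ticks are H3K4me1 summits and red ticks H3K4me3 summits. The top desert, 9.89 Mb on chromosome 13, holds 8 and 5, and the desert of 6.96 Mb on X holds none.

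Genes were placed from a list of 66 large or neural genes and 14 liver genes, drawn up from general knowledge because they are known to be off or on in liver. It is not an unbiased sample, and the counts describe these genes only. Their spans on GRCh37/hg19 came from general knowledge, rounded to 1 kb, and were used only where the span in RefSeq on GRCh38.p14 lay on the same chromosome and had the same length within 20 kb, which held for 55 of the 66 and 13 of the 14. Among the 55, 37 lay wholly inside a desert, 15 partly and 2 outside (GPC6 and PCDH8), and EPHA3 lay in an interval on a centromere band. Deserts covered 91.5% of their summed span of 45.7 Mb, beside 40.1% of the genome. Of the 13 liver genes none lay wholly in a desert, 12 lay outside, and GPC3 had 1.35% of its span in one. A gene with H3K27ac in its span cannot lie wholly in a desert by definition, so this placement is no separate result. The liver spans summed to only 0.89 Mb, so the lists also differed in gene length. All 13 had an H3K27ac peak in their span, among them ALB with 4, APOB with 16 and HNF4A with 16, so the liver markers of the line were present.

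The 37 genes wholly inside summed to 22.2 Mb and held 60 H3K4me1 peaks, in 22 genes, and 19 H3K4me3 peaks, in 13 genes. That is 2.70 H3K4me1 and 0.856 H3K4me3 peaks per Mb, beside 8.91 and 0.846 per Mb over all deserts. The deserts of these genes all measured 1 Mb or more, so the all-desert values are not of like length. Deserts of 1 to 2 Mb held 7.63 and 0.739 per Mb, and those of 2 Mb or more 3.25 and 0.533 per Mb. The genes with peaks of neither mark in their spans included CDH9, PCDH7, PCDH10, PCDH18, PCDH11X, CDH7, NRG3, MDGA2, EPHA7 and DSCAM, which encode adhesion and guidance molecules of neurons or, in NRG3, a neuregulin. At the other extreme NKAIN2 held 7 H3K4me1 and 2 H3K4me3 peaks in 1022 kb, GPC5, a glypican, held 6 and 2 in 1469 kb, and SORCS3 held 6 and 0 in 624 kb. GRM8, a glutamate receptor gene, had the most H3K4me3 peaks of the 37, with 3.

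An H3K4me3 peak lay within 2 kb of the start of 9 of the 37 genes. The signal values were 12.3 at GRM8, 10.9 at ADGRB3 (an adhesion receptor), 3.66 at NCAM2, 3.14 at SLITRK5, 2.58 at LRFN5, 2.57 at EPHA6 (an ephrin receptor), 2.36 at GPC5 and 2.24 at PCDH17. The ninth, PCDH9, reached 27.4, and there the H3K4me3 peak crossed the desert's end and an H3K27ac peak lay within the same 2 kb. RefSeq's promoter window of 300 bases matched the gene's outer start for 29 of the 37. Of these, 7 had H3K4me3 at the start and held 18 to 53 CG dinucleotides (median 33), and 22 had none and held 4 to 43 (median 14). All 35116 promoters had a median of 14 (quartiles 4 and 28). The 2 ranges overlapped: NRG3, with 43 CG dinucleotides, and SORCS3, with 35, had no H3K4me3 peak at their starts.

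The strongest H3K4me3 peaks inside deserts came close to or passed the median of H3K4me3 peaks on H3K27ac, 27.5. At the top stood chr3:107808699-107810335, 1637 bp wide, with a signal value of 32.4, in the upper part of the list but below its strongest 25%. It lay at the start of CD47, 131 kb from the nearer end of a desert of 0.531 Mb, and no H3K4me1 peak touched it. An H3K27ac peak at that start, among the absent peak numbers given above, would split this desert below 500 kb. The next, chr3:23243908-23245779, had a signal value of 30.3 and lay at the start of UBE2E2, 602 kb from the nearer end of a desert of 3.48 Mb. The others of the top 6 were chr6:106439612-106440915 at 29.8, chr19:31840248-31842501 at 28.2, chr13:78271243-78273500 at 27.4 and, the weakest of the 6, chr15:32161989-32163682. The chromosome 13 peak lay at the start of SLAIN1, a microtubule protein, and the chromosome 15 peak also lacked H3K4me1.

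After their values were seen, genes were looked up at H3K4me3 peaks inside deserts, and 20 of 23 had a span that passed the check above. Of the 20, 15 lay wholly inside a desert, so that their spans hold no H3K27ac by definition, and 5 partly. These 5 had H3K27ac elsewhere in their spans: RORA 15 peaks, SOX5 10, and AUTS2, OTUD7A and PELI2 1 each. The start was placed for 17 of the 20, and each of those had H3K4me3 within 2 kb, none had H3K27ac there and 16 had H3K4me1, the exception being CD47. The H3K4me3 follows from how the genes were chosen, and the lack of H3K27ac largely does too. No share over other promoters was set beside the H3K4me1 count, so it describes these genes only. Transcription factors of other lineages were among those wholly inside: POU4F1, of sensory neurons, had a signal value of 24.1 at its start, MITF, of melanocytes, 18.2, and ETV1 5.68. So were NOVA1, a neuronal splicing factor, at 15.2, HTR7, a serotonin receptor, at 15.5, PRKD1, a protein kinase, at 18.1, CHSY3, a chondroitin synthase, at 14.2, and MAGEE1 at 24.5. All these signal values are at the gene's outer start. Starts inside a span were not placed, and the MITF span of 228 kb held 1 H3K4me3 peak. POU4F1 and SLAIN1 lay in 1 desert of 1.14 Mb.

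H3K4me1 inside deserts, in contrast to H3K4me3, included some of the strongest peaks of its list. The highest was chr14:30877893-30880225, with a signal value of 13.3, above 99.9% of all H3K4me1 peaks, in the desert of 1.53 Mb that also contained PRKD1. The next 5 were chr2:119974851-119977440 at 11.9, chr6:39264603-39266728 at 11.6, chr10:45403351-45408991 at 11.6, chr10:49659768-49665160 at 11.5 and chr22:43803367-43805355 at 11.2. None of the 6 touched H3K4me3, and they lay 4.47 to 183 kb from the nearer desert end. In all, 1254 of the 10852 H3K4me1 peaks inside, 11.6%, stood in the strongest 25% of the list, against 14.8% of unacetylated peaks outside and 45.9% of those on H3K27ac.

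The H3K27ac peaks that closed the deserts were, by median, somewhat stronger than the list as a whole. The 1928 bounding peaks had a median signal value of 3.79 (quartiles 2.42 and 10.5), against 3.15 for all 66513. Of them 42.5% (40.3 to 44.8%) overlapped H3K4me3, against 31.7% of the whole list, and 76.1% overlapped H3K4me1, against 87.4%. Among these, 134 peaks stood alone with a desert on either side. Such islands overlapped H3K4me3 in 41.0% and H3K4me1 in 64.2% of cases, and 17.9% overlapped neither, against 8.52% of all peaks. The island with the longest deserts around it, chrX:140000939-140001231, was 293 bp wide with a signal value of 2.54 and no other mark. By contrast chr13:64648477-64652969, between deserts of 2.41 and 3.15 Mb, was 4493 bp wide with a signal value of 26.1 and carried both methylation marks.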

How the data were processed

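HepG2 libraries of H3K27ac, H3K4me1, H3K4me3 and a control, 3 each, were represented by 3 deposited peak lists, 1 per mark. Peaks were called with MACS2 on hg19, per the submitters' processing notes; its version, threshold and use of the control are not given in the sources used here. Per peak the authors deposited a score, a signal value, a −log10 p-value, a −log10 q-value and a summit. Peaks on chromosome Y were set apart. A peak was inside a desert if wholly so; overlap needed 1 bp. Centromeres were the acen bands of hg19 in circlize 0.4.16. RefSeq tables on GRCh38.p14 gave names, span lengths and promoters. No per-library value was used, so nothing was tested; SDs are over the 23 chromosomes, or those that hold a band class. Intervals named were the 10 longest, the 3 densest in H3K4me1 and the 3 longest without it, and peaks named were the 6 of highest signal value per mark; genes came from a written list. Members, lists and rules were chosen with earlier results of these data known. Alternatives covered the length limit, peak strength, q-value, overlap, ends, comparison sequence and chromosome X. Interval functions were tested on simulated data. Python 3.11.15, pandas 2.3.3 and R 4.3.3 were used.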

Additional observations from a re-analysis of the deposited data

Results flagged for a closer look

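Chromosome Y was outside the comparisons. Its 7 intervals of 500 kb or more without H3K27ac and without a centromere band covered 11.9 Mb and held 16 H3K4me1 peaks (1.35 per Mb) and 11 H3K4me3 peaks (0.927 per Mb), the strongest H3K4me3 peak at a signal value of 17.5. They are listed because they lie in data that no comparison used. No control or comparison value was set beside them.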

How the results depend on the processing

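No paired analysis was possible because each list pools the replicates, and leaving out a replicate was not possible for the same reason. Of 36 alternatives for 6 results, 20 left the value the same or close to it, 16 moved it further and 0 reversed a ratio. Counts of deserts have no measured spread, so for them this is a matter of size only. The number of deserts was 2047 at 250 kb and 433 at 1 Mb, but 1039 with H3K27ac peaks of −log10 q of at least 5 and 1092 with the stronger 50%. The density ratio against gaps of 10 to 500 kb was 0.130 for H3K4me1 and 0.281 for H3K4me3. The H3K4me3 ratio against the rest of the genome, 0.0571 in the main setting, was 0.00585 with the stronger 50% of H3K4me3 peaks. With all peaks that touch a desert it was 0.0968, and the H3K4me1 ratio was then 0.0907. Deserts without H3K4me1 numbered 80 at −log10 q of at least 5, 146 with the stronger 50%, 8 at 1 Mb and 12 when touching peaks counted. Deserts without H3K4me3 numbered 979 with the stronger 50%, 151 at 1 Mb and 204 when touching peaks counted. The share of H3K4me3 peaks inside that overlapped H3K4me1 was 41.2% with 50% of the peak covered, 54.1% at −log10 q of at least 5 in both lists and 58.5% in deserts of 1 Mb or more. The counting of touching peaks and a narrower definition of the centromere (1039 deserts) were chosen after seeing the data. These alternatives change which peaks or intervals are counted by construction. Sequence that reads could not map to, copy number and read depth were not analysed here, and their part in any desert was not tested.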
